A study of Homo sapiens with 23 samples.

Results

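Genes that encode coregulators of nuclear receptors and chromatin proteins were examined in 2 loop lists made from T47D, a human breast cancer cell line that carries the progesterone receptor. The members were 45 named genes among 19974 protein-coding genes, chosen by name: coactivators and acetyltransferases, Mediator subunits, BET readers and PARP1, H3K4 methyltransferases, SWI/SNF remodelers, corepressors, histone deacetylases, and cohesin with CTCF. A loop was placed at a member when either of its 5 kb bins overlapped the gene widened by 10 kb. This placed 47 of the 9591 loops of the T30 library and 49 of the 7075 loops of the T0 library at members.

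Loops came from HiChIP, a method that ligates DNA fragments in spatial contact and pulls down the ligated pairs by antibody. The antibody was directed at the progesterone receptor (PR). The library labelled T30 carries the title PR5020, taken here to join the receptor and R5020, a synthetic progestin; the dose and the unit of the time are not stated for it. The library labelled T0 carries no agent in its title. Both were T47D cells that, per the protocol shared by all samples of the series, were kept in hormone-stripped medium and then without serum. There was 1 library per condition, so no difference below has a replicate check, and every interval covers counting error only.

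Steroid receptors bound to hormone regulate genes through coregulators. Coactivators such as the p160 family bring acetyltransferases, Mediator and SWI/SNF remodelers to receptor-bound DNA, while corepressor complexes carry histone deacetylases. Cohesin, held at sites bound by CTCF, forms chromatin loops. The lists show where receptor-enriched contacts touched the genes of these proteins, not where the proteins themselves acted.

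The lists differed in length and in the loops they admit. Over all loops, T30 had 1.36 loops per T0 loop (exact binomial 95% interval 1.31 to 1.40). The largest p-value listed was 2.84e-05 in T30 and 0.000233 in T0, at the same q-value threshold of 0.05. The shortest span, the distance between the starts of the bins of a loop, was 20 kb in T30 and 10 kb in T0, and T0 held 574 loops under 20 kb. How deeply each library was sequenced is unknown.

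A member had a listed loop less often than not. In T30, 16 of the 45 genes had a loop, or 35.6% (exact 95% interval 21.9 to 51.2), where 32.2% of all protein-coding genes did. In T0, 18 had a loop, or 40.0% (25.7 to 55.7), where 27.3% of all genes did. The interval of each share holds the share of all genes, so the count of members was not distinguishable from the background. Both libraries had a loop at 11 members, or 24.4%, against 17.9% of all genes. At 5 members a loop was listed in T30 alone (background 14.2%) and at 7 in T0 alone (background 9.37%), and 22 had none in either list. The members are long genes, with a median length of 86.1 kb against 24.2 kb over all genes. Among genes of 20 to 50 kb, 6 of 16 members in T30 and 8 of 16 in T0 had a loop, against 32.3% and 27.2% of all genes of that length. At 100 to 200 kb the counts were 5 of 12 in T30 and 4 of 12 in T0, against 36.3% and 33.1%. Among genes of 200 kb or more they were 1 of 7 in T30 and 2 of 7 in T0, against 33.7% and 34.2%. Of the 3 members under 20 kb, 1 had a loop in T30 and 2 in T0, against 30.2% and 24.6% of all genes of that length. Of the 7 members of 50 to 100 kb, 3 had a loop in T30 and 2 in T0, against 34.5% and 28.7%.

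Loops at members were about as many in T30 as in T0, with a ratio of 0.959 (exact 95% interval 0.629 to 1.46). Distinct partners, the bins joined to a gene's bins, summed to 51 in T30 and 46 in T0 (ratio 1.11, interval 0.730 to 1.69), where the sum over all genes had a ratio of 1.32. More partners in T30 were listed at 11 members, or 24.4%, against 21.4% of all genes, and fewer at 9, or 20.0%, against 15.0%. Among genes with a loop in either library, the median difference in partners (T30 minus T0) was 0 at members and 1 over all genes. Contacts, the read pairs of the listed loops, summed to 666 in T30 and 955 in T0 at members (ratio 0.697), and the ratio over all loops was 1.06. The 5 loops of 10 kb in T0 had 47 to 52 contacts each, and T30 lists no loop of that span. With loops of 20 kb or more the contacts were 666 in T30 and 707 in T0 (0.942), against 1.33 over all loops. When both lists were held to the largest p-value of T30, 21 loops were left in T0 and 47 in T30. The ratio was then 2.24 (1.31 to 3.94) at members and 2.25 over all loops, and the ratio of contacts was 1.46. With lists of equal length the ratio was 0.714 for loops and 0.761 for partners. The direction of each of the 3 summed differences thus turned with the loops admitted.

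**Figure D1:**
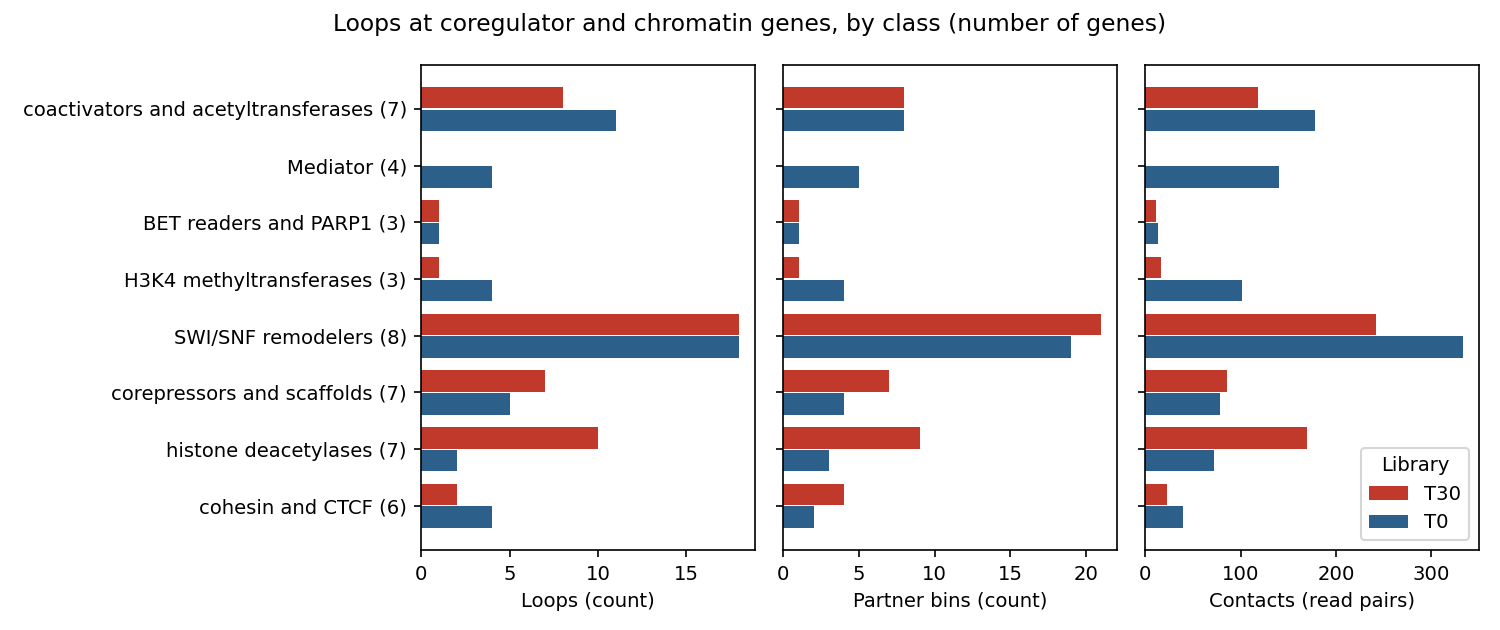
Loops, distinct partner bins and contacts (read pairs) at the 8 classes of genes in T30 (red, upper bar) and T0 (blue, lower bar), 1 library each; the number of genes is in brackets. SWI/SNF remodelers had 18 loops in each library, and the 4 Mediator members had none in T30 and 4 in T0. The histone deacetylases among the members had 10 in T30 and 2 in T0, of which HDAC7 held 8 in T30 and 1 in T0.

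Loops were spread unevenly over the classes. SWI/SNF remodelers held the most, with 18 in each library, 21 partners in T30 and 19 in T0, and 242 contacts in T30 against 333 in T0. Coactivators and acetyltransferases had 8 loops in T30 and 11 in T0. Histone deacetylases had 10 loops in T30 and 2 in T0 (ratio 5.00, exact 95% interval 1.07 to 46.9). Of these, HDAC7 alone held 8 in T30 and 1 in T0, and 5 of the 7 deacetylase members had no loop in either library. The 4 deacetylase genes outside the members went the other way, with 5 loops in T30 and 10 in T0. Corepressors had 7 in T30 and 5 in T0, and cohesin with CTCF had 2 in T30 and 4 in T0. The 4 Mediator genes had no loop in T30 and 4 loops in T0. The ratio over all loops, 1.36, lay within the interval of every class, the deacetylases included. Median spans were 97.5 kb in T30 and 132.5 kb in T0 at remodelers, 155 kb in T30 and 260 kb in T0 at corepressors, and 45 kb in T30 and 40 kb in T0 at deacetylases.

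Promoters bear on these loops where a loop end falls on the bin with the gene's start site. Start sites were taken from a RefSeq promoter table of GRCh38.p14, which matched 38 of the 45 members. A loop ended at the start bin of 3 members in T30 (background 9.00% of all genes with a start) and of 5 in T0 (background 8.89%). KMT2D and SMARCE1 were listed there in both libraries, with 1 loop in T30 and 2 in T0 each. CTCF had 1 loop in T30 and none in T0, TBL1XR1 had none in T30 and 2 in T0, and MED1 and SMC3 had none in T30 and 1 each in T0. The order at TBL1XR1 turned with the start site taken. The start used, 177197482, lies inside the gene, which reaches 177201800. At the bins that hold an end of the gene, TBL1XR1 had 2 loops in T30 and 0 in T0. The promoters of these 6 genes are shown, since a loop ended at each, 5′ to 3′ along the gene, from 250 bases before the start to 50 after it; capitals mark the bases from the start on.
KMT2D promoter, chr12:49060745-49061044, minus strand: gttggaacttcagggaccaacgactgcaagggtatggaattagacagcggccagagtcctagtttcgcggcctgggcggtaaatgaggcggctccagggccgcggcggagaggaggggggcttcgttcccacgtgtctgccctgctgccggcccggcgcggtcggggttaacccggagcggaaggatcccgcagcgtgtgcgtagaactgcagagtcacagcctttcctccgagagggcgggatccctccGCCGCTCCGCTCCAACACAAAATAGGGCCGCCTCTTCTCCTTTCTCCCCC
SMARCE1 promoter, chr17:40647769-40648068, minus strand: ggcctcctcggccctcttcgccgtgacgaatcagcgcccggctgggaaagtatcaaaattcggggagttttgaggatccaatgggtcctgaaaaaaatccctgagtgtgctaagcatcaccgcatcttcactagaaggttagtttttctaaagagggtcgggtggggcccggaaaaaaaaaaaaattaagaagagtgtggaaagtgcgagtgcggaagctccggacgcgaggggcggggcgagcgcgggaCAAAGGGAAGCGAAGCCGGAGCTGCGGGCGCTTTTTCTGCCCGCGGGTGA
TBL1XR1 promoter, chr3:177197433-177197732, minus strand: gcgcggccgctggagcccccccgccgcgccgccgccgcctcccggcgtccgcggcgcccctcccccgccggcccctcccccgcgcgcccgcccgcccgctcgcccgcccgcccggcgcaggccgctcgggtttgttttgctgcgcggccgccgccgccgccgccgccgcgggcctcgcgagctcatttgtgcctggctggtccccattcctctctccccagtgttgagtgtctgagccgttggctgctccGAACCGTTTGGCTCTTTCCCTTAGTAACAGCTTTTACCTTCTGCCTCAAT
CTCF promoter, chr16:67562276-67562575, plus strand: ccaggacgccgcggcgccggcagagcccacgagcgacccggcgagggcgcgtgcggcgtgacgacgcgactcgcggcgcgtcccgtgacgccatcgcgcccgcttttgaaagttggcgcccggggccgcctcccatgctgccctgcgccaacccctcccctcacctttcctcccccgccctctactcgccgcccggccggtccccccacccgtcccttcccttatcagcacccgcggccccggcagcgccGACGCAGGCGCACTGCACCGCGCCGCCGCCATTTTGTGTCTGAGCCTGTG
MED1 promoter, chr17:39451214-39451513, minus strand: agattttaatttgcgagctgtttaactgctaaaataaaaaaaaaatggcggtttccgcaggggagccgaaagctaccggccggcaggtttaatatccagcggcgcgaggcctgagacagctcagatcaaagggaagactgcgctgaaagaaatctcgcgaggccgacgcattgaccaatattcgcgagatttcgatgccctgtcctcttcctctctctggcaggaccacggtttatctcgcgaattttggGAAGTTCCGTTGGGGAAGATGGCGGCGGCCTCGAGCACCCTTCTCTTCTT
SMC3 promoter, chr10:110567445-110567744, plus strand: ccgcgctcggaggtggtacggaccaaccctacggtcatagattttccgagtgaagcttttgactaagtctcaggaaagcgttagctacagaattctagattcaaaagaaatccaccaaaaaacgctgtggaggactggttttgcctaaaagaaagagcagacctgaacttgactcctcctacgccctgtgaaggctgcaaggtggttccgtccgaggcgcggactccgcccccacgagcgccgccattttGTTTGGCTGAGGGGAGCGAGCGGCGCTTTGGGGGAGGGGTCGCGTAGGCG

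The 6 promoters spanned a wide range of base composition. The share of G and C was 65.0% at KMT2D, 56.3% at SMARCE1, 75.0% at TBL1XR1 and 75.3% at CTCF, and the lowest was 52.0%, at MED1. Their median was 60.7%, against 70.8% over the 38 member promoters and 62.7% over all promoters. The hexamer AGAACA, an arm of the element that progesterone and glucocorticoid receptors bind, was searched on both strands, where it reads TGTTCT on the other. It was in none of the 6 promoters with a loop at the start bin, in 5 of the 38 member promoters (13.2%) and in 11.2% of all 15812 promoters. The window covers 300 bases of a 5000 bp bin, so the search says nothing of the rest of the bin.

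**Figure D2:**
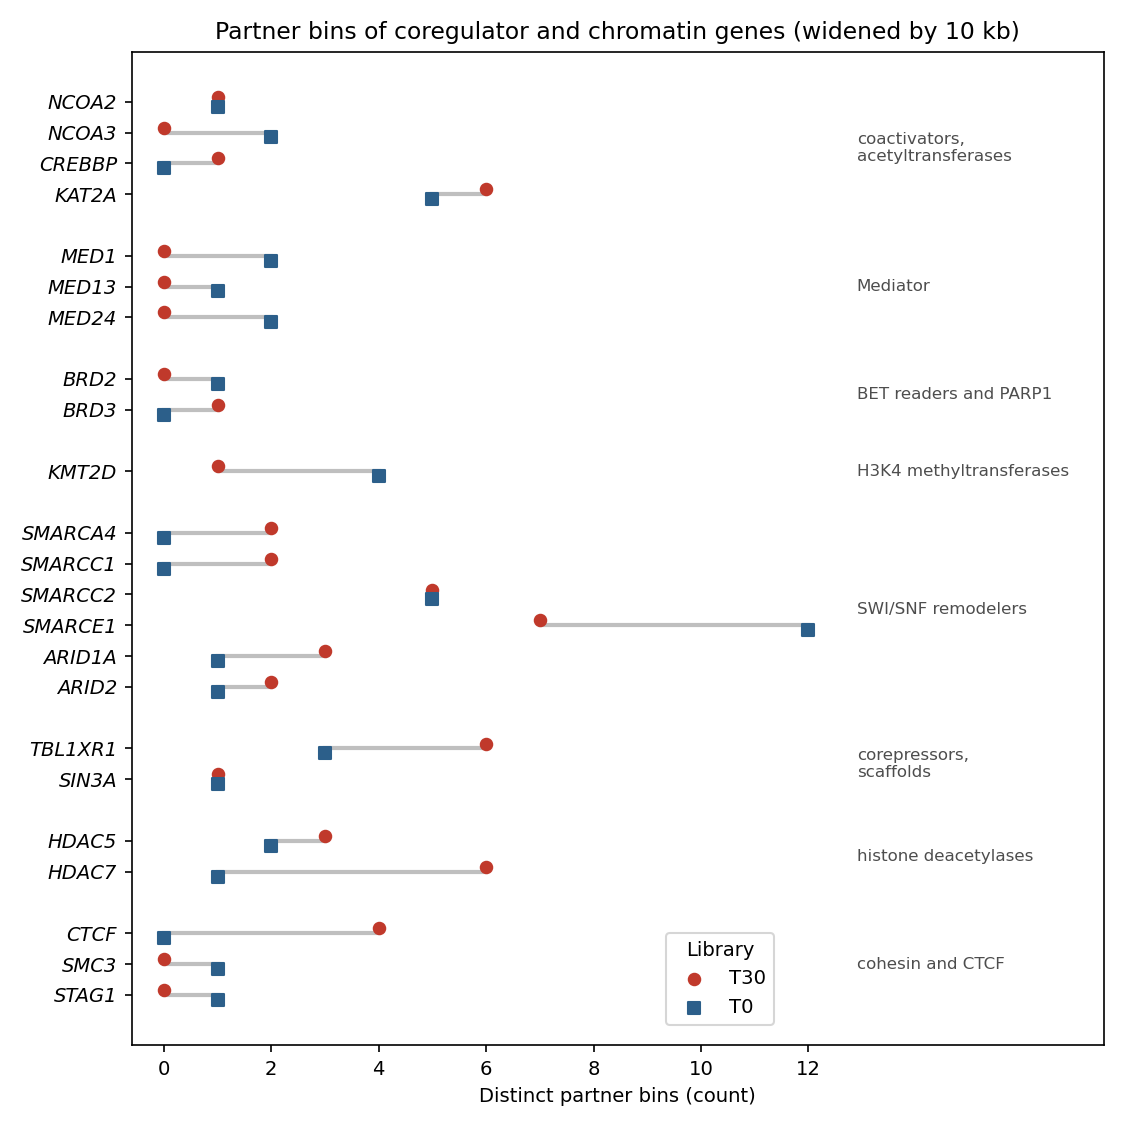
Distinct partner bins (count) of each of the 23 members with a loop in either library, by class, in T30 (red circles) and T0 (blue squares), 1 library each. SMARCE1 had 7 in T30 and 12 in T0, HDAC7 had 6 in T30 and 1 in T0, and the other genes had 0 to 6 in either library.

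SMARCE1, a SWI/SNF subunit also known as BAF57 that binds steroid receptors, had the most loops of any member in T0 and, after HDAC7, in T30. The gene lies on chromosome 17 from 40624962 to 40647818 (hg38). It had 7 loops with 90 contacts in T30 and 12 loops with 165 contacts in T0, a ratio of loops of 0.583 (exact 95% interval 0.195 to 1.61). In T30, 5 of the loops met in the bin from 40615001 to 40620000, just outside the gene. In T0 that bin had 3 partners, and the next bin, from 40620001 to 40625000, which holds an end of SMARCE1, had 7 in T0 and 1 in T30. The gene reaches only the edge of this next bin, at 40624962. The bin where most loops met thus differed by 1 bin between the libraries. Several partners lay in neighbouring type I keratin genes, which encode epithelial filament proteins. A loop to the KRT28 bin at 40790001 had 15 contacts in T30 and 26 in T0, a loop to KRT24 at 40695001 had 12 in T30 and 21 in T0, and a loop to the KRT37 bin at 41420001, 805 kb away, had 10 in T30 and 8 in T0. The 3 longest loops at members, of 1030 to 1050 kb, were listed in T0 with 8 to 10 contacts. They joined the bin at 40620001, at the edge of SMARCE1, to the bins at 41650001, 41660001 and 41670001. T30 listed no loop of that span here. The order of the libraries turned with the threshold: with the lists held to a common largest p-value SMARCE1 had 7 loops in T30 and 3 in T0, and at q under 0.01 it had 6 in T30 and 3 in T0.

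The other remodeler genes had fewer loops. SMARCC2, which encodes a core scaffold subunit, had 4 loops in each library, with 70 contacts in T30 and 142 in T0. Of the 142, 49 came from a loop of 10 kb within the gene, under the shortest span listed in T30. A loop that ended in its flank at 56150001 had 23 contacts in T30 and 37 in T0 between the same bins, and a loop from 56195001 to 56220001 had 17 in T30 and 31 in T0, also between identical bins. SMARCA4, which encodes the ATPase BRG1, had 1 loop of 20 kb and 18 contacts within the gene in T30 and none in T0. SMARCC1, the paralog of SMARCC2, had likewise 1 loop of 20 kb and 13 contacts within the gene in T30 and none in T0. Over the genome, loops of 20 to 50 kb were 31.5% of the T30 list and 5.09% of the T0 list. How many of them were listed in T30 alone was not counted. ARID2, a PBAF subunit gene, had 2 loops in T30 and 1 in T0, all ending in the bin at 45725001 that holds an end of the gene. ARID1A, a BAF subunit gene often mutated in cancer, had 3 loops in T30 and 1 in T0, none in the gene itself. A loop between 26605001 and the PIGV bin at 26785001 had 9 contacts in T30 and 11 in T0. The order turned with the threshold: ARID1A had 0 loops in T30 and 1 in T0 at q under 0.01 and at 10 or more contacts. SMARCA2 and ARID1B had none in either library.

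HDAC7 had the largest difference towards T30. HDAC7, a class IIa deacetylase that acts with corepressor complexes, lies on chromosome 12 from 47782722 to 47821344. It had 8 loops with 142 contacts in T30 and 1 loop with 20 contacts in T0, and 6 partners in T30 against 1 in T0. The ratio of loops was 8 (exact 95% interval 1.07 to 355), and the ratio over all loops, 1.36, lay within that interval. HDAC7 was singled out by these same counts. Its T30 loops share bins, so they are not independent as the interval takes them to be. The loop with most contacts of any member in T30, with 31, joined RAPGEF3 at 47740001 to the bin at 47775001 in SLC48A1, which lies in the widened flank and not in HDAC7. That bin had 4 partners in T30 and 1 in T0. An end in the gene itself was listed for 4 loops in T30 and 0 in T0. One of these, of 19 contacts, ran from 47795001 in the gene to 47835001 outside it. The loop of 17 contacts from 47785001 to 47820001 had both ends in HDAC7, near its opposite ends. In its surroundings, 24 loops ended within 500 kb of HDAC7 in T30 and 12 in T0. These counts include the 8 loops in T30 and the 1 in T0 at HDAC7 itself. HDAC7 had more partners in T30 under each of the 8 other settings for loops and gene ends. The part of these surroundings in the difference at HDAC7 was not tested.

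HDAC5, of the same class, had 2 loops in T30 and 1 in T0, with 28 contacts in T30 and 52 in T0. The T0 loop spanned 10 kb, between 44070001 in G6PC3 and 44080001 in HDAC5, and both T30 loops spanned 45 kb and met in the bin at 44120001. HDAC1, HDAC2 and HDAC3, the class I enzymes of the CoREST, NuRD, SIN3 and NCoR complexes, had no loop in either library, nor did HDAC4 and HDAC8.

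Among the coactivators and acetyltransferases, KAT2A, which encodes the acetyltransferase GCN5, held most loops. The gene lies on chromosome 17 from 42113111 to 42121367. It had 6 loops in T30 and 5 in T0, with 94 contacts in each. In T30, 5 of the loops met in the bin at 42110001, which holds an end of KAT2A and part of DHX58, and no T0 loop ended there. In T0, 3 loops met in the next bin, at 42115001. By cluster ranges, 1 of the 6 T30 loops and 2 of the 5 T0 loops at KAT2A were found in the other list. The matched pair between NKIRAS2 and KAT2A had 19 contacts in T30 and 22 in T0. The ZNF385C bin at 42035001 was joined to KAT2A in both lists, with 12 contacts in T30 and 17 in T0, while the partners at 42065001 and 42150001 were listed in T30 alone. NCOA2, a p160 coactivator, had 1 loop with 11 contacts in T30 and 4 loops with 65 contacts in T0. All of them joined the gene to the bin from 70530001 to 70535000 on chromosome 8, outside the gene, so NCOA2 had 1 partner in each library. The loop from 70145001 was listed in both, with 11 contacts in T30 and 29 in T0. NCOA3, the p160 coactivator amplified in some breast cancers, had none in T30 and 2 loops in T0, of 11 and 8 contacts, only the first of which ended in the gene. CREBBP had 1 loop in T30, of 13 contacts and ending beside the gene, and none in T0. NCOA1, EP300 and KAT2B had none in either library.

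Loops at the 4 Mediator members were listed in T0 alone, with 0 in T30 against 4 (interval of the ratio 0 to 1.51). This did not hold for Mediator genes outside the members. Of 29 such genes, 7 had a loop in T30 and 10 in T0, where 32.2% and 27.3% of all genes did. Their loops, summed over genes, numbered 25 in T30 and 33 in T0. MED1, the subunit that binds nuclear receptors directly, had 1 loop in T0, between its start bin at 39450001 and the CDK12 start bin at 39460001, with 52 contacts. MED13, of the kinase module, had 1 in T0, of 48 contacts between INTS2 at 61925001 and the flank of MED13. Both spanned 10 kb, under the shortest span listed in T30. MED24 had 2 loops in T0, one of 23 contacts to the start bin of NR1D1, a nuclear receptor gene of the circadian clock, at 40100001, and one of 17 contacts to 40110001. In T30 the bins of MED24 had none, although 18 loops ended within 500 kb, against 30 in T0 with its own 2 included. MED12, on chromosome X, had none in either library.

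Of the corepressor genes, TBL1XR1, a subunit of NCoR corepressor complexes, had 6 loops with 76 contacts in T30 and 4 with 68 contacts in T0 (ratio of loops 1.5, exact 95% interval 0.356 to 7.23), and 6 partners in T30 against 3 in T0. The gene lies on chromosome 3 from 177019344 to 177201800. Of these, 4 loops in T30 and 3 in T0 ran upstream to bins between 177340001 and 177375001 that overlap no protein-coding gene. Among them, a loop between 177200001 and 177355001 had 14 contacts in T30, and the matching loop between 177195001 and 177360001 had 24 in T0. TBL1XR1 had more partners in T30 under each of the 8 other settings. SIN3A, a scaffold of deacetylase complexes, had 1 loop of 10 contacts in each library, both from the MAN2C1 end, to CSPG4 in T30 and to SNUPN in T0. NCOR1, RCOR1, KDM1A, CHD4 and EZH2 had none in either library.

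**Figure D3:**
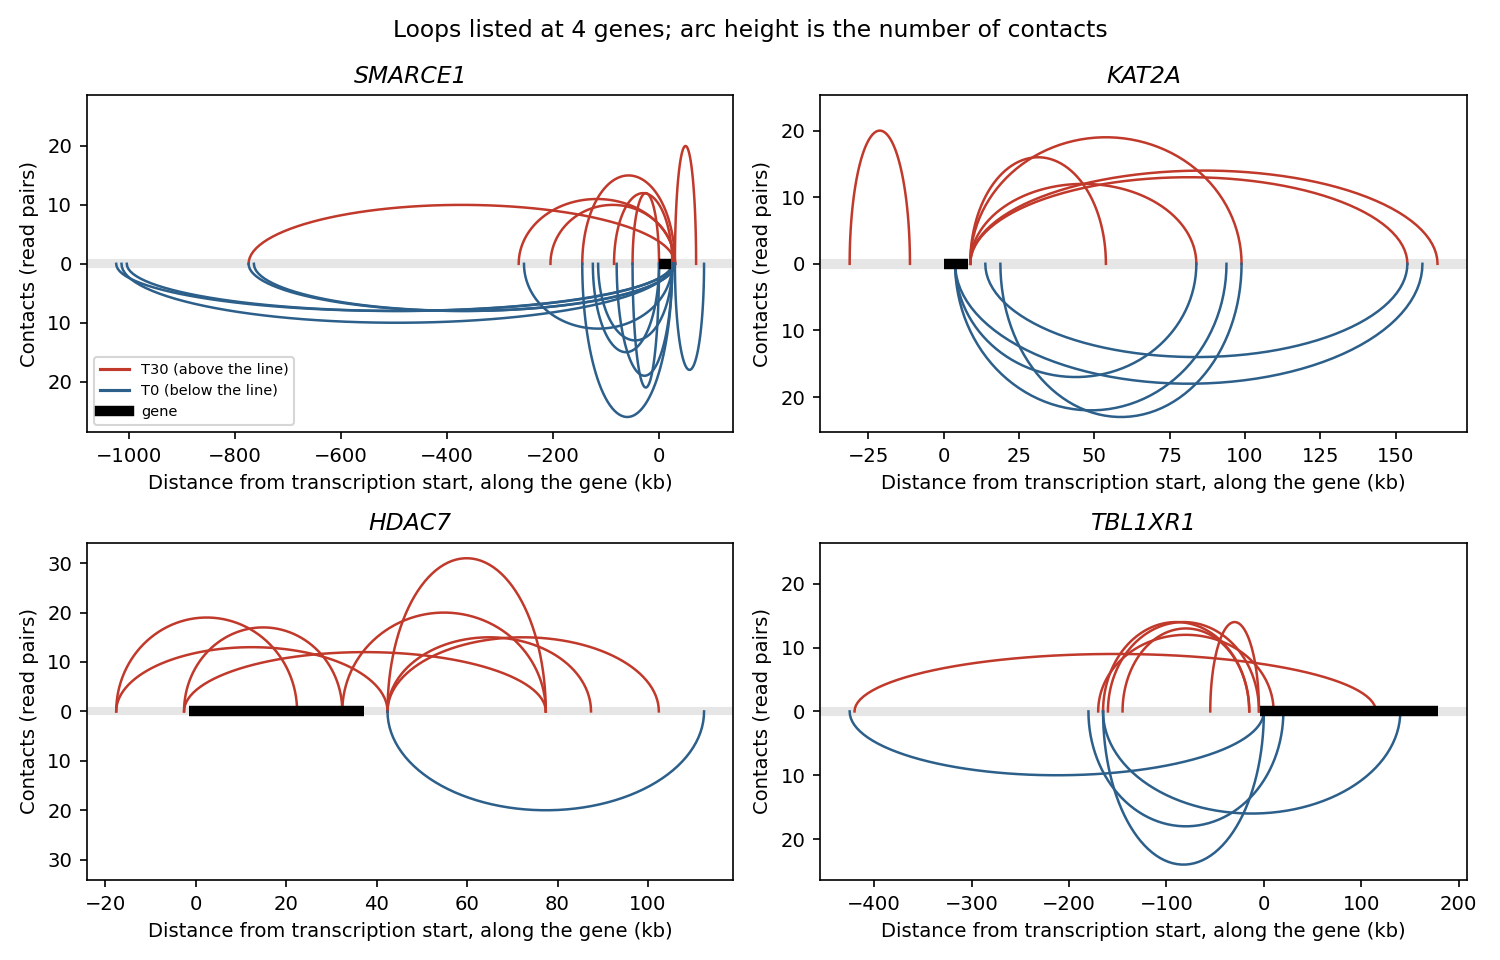
Loops at SMARCE1, KAT2A, HDAC7 and TBL1XR1 as arcs, drawn above the line for T30 and below it for T0; the x axis is the distance from the transcription start along the gene (kb), arc height is the number of contacts (read pairs) and the black bar is the gene. At SMARCE1 and KAT2A the arcs met in neighbouring bins, at HDAC7 there were 8 arcs in T30 and 1 in T0, and at TBL1XR1 6 in T30 and 4 in T0.

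KMT2D, which encodes an enhancer H3K4 methyltransferase, had 1 loop with 16 contacts in T30 and 4 loops with 101 contacts in T0. Its start bin at 49060001 was joined to the TUBA1B bin at 49125001 in T30 with 16 contacts. In T0 it was joined to the bin at 49115001 with 28 and to the TUBA1C bin at 49235001 with 13. The T30 loop of 16 contacts and the T0 loop of 28 were matched by cluster ranges. Another T0 loop, of 47 contacts, spanned 10 kb. At q under 0.01 KMT2D had 1 loop in each library. KMT2A and KMT2C had none in either library. BRD3 had 1 loop of 11 contacts in T30 and none in T0. Within 500 kb of BRD3, its own loop included, 57 loops ended in T30 and 2 in T0. This was the widest gap of surroundings of any member. BRD2 had none in T30 and 1 in T0, of 13 contacts, and PARP1 had none in either library.

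Of the 6 cohesin and CTCF genes, 1 had a loop in T30 and 2 had one in T0, where 32.2% of all genes did in T30 and 27.3% in T0. CTCF, on chromosome 16 from 67562526 to 67639177, had 2 loops in T30 and none in T0. One joined its start bin at 67560001 to 67640001, just past the far end of the gene, with 11 contacts, and the other lay within the gene, from 67570001 to 67615001, with 12. Loops within 500 kb of CTCF, its own 2 in T30 included, numbered 16 in T30 and 3 in T0. No loop at CTCF was left at q under 0.01. STAG1 had none in T30 and 3 loops in T0, of 8, 9 and 13 contacts, all to the IL20RB bin at 137010001. Within 500 kb of STAG1 there were 0 loops in T30 and 9 in T0, these 3 included. SMC3 had none in T30 and 1 in T0, of 10 contacts between 110315001 and its start bin. RAD21, SMC1A and STAG2 had none in either library.

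**Figure D4:**
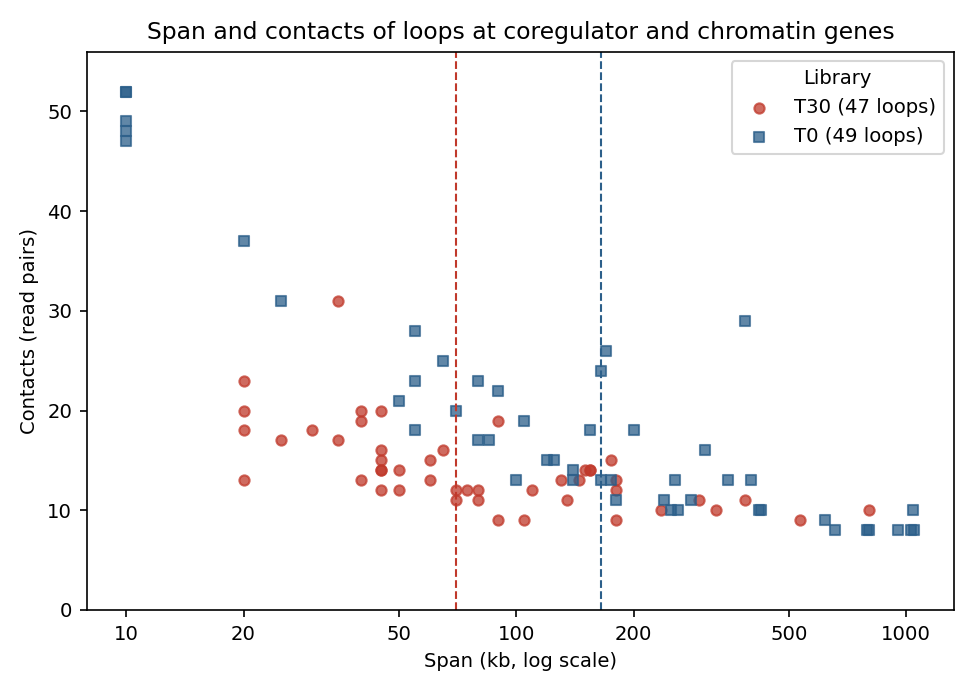
Contacts (read pairs) against span (kb, log scale) of the 47 loops at members in T30 (red circles) and the 49 in T0 (blue squares); dashed lines are the medians, 70 kb in T30 and 165 kb in T0. The 5 T0 loops of 10 kb had 47 to 52 contacts, above the 31 of the highest T30 loop at a member.

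Loops at members were shorter in T30, as all loops were. Their median span was 70 kb in T30 (interval from order statistics 45 to 110) and 165 kb in T0 (100 to 250), against 80 kb in T30 and 190 kb in T0 over all loops. Spans of 20 to 50 kb made up 17 of the 47 loops in T30 and 2 of the 49 in T0, and spans of 500 kb or more made up 2 in T30 and 8 in T0. The median number of contacts was 13 in T30 and 15 in T0, against 13 in T30 and 14 in T0 over all loops. A loop of the other list overlapped at both ends, by cluster ranges and at least 1 bp, for 13 of the 47 T30 loops, or 27.7% (exact 95% interval 15.6 to 42.6), against 16.4% of all T30 loops. The same held for 12 of the 49 T0 loops, or 24.5% (13.3 to 38.9), against 22.2% of all T0 loops. Both intervals hold the share over all loops.

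Contacts of loops matched between the lists were compared at members. In T30, 12 of the 13 matched loops had fewer contacts than in T0 and 1 had more, where 1171 of all 1389 matched loops had fewer. The median ratio of T30 to T0 was 0.583 at members and 0.667 over all matched loops. Against the ratio over all matched loops, each matched loop was tested by a two-sided exact binomial test, with p-values adjusted by Benjamini-Hochberg over all 1389. It called none of the 13, with 0 at an unadjusted p under 0.05. Over the genome the test called 22 loops higher (1.58%) and 1 lower (0.0720%); it compares these libraries and not the conditions. The lowest scaled log2 ratio at members was -0.81 at the NCOA2 loop of 11 contacts in T30 and 29 in T0 (95% interval -1.96 to 0.23; exact binomial adjusted p = 0.973). The highest was 0.91 at the loop from SMARCE1 to KRT37 (-0.59 to 2.45; exact binomial adjusted p = 1.00). With the ratio of all listed contacts (1.06) as the scale in place of the median ratio, the NCOA2 loop was called lower in T30 (exact binomial adjusted p = 0.0345). It was the only 1 of the 13 called on that scale, where 127 of all 1389 matched loops were called lower and 6 higher.

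The ends of these loops were often not in the named gene. An end lay in the unwidened gene for 27 of the 47 T30 loops and 35 of the 49 T0 loops, and the others ended in the flank alone. Of these, 1 loop in T30 and 7 in T0 counted only through the bin from 40620001 to 40625000. SMARCE1 begins at 40624962, so it reaches only the edge of that bin. Both ends lay at the same member for 7 loops in T30 and 4 in T0, and no loop joined a pair of members. Outside the members, the other ends fell on 37 bins in T30 and 38 in T0, of which 18 in T30 and 20 in T0 overlapped a protein-coding gene and 5 in T30 and 8 in T0 held a gene's start site.

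Most loops at members lay on a pair of chromosomes, which was picked by these same counts. Chromosomes 12 and 17 carry 12 of the 45 members. They held 30 of the 47 loops in T30 and 32 of the 49 in T0. Of all loops they held 15.6% in T30 and 18.8% in T0. HDAC7, SMARCE1 and KAT2A, on this pair, had 8, 7 and 6 loops in T30 and 1, 12 and 5 in T0. On these chromosomes 7 of the 12 members had a loop in T30 and 10 in T0, and 49.2% of all their genes did in T30 and 45.2% in T0. Among the 33 members elsewhere, 9 had a loop in T30 and 8 in T0. Over all genes, chromosomes 12 and 17 included, 32.2% did in T30 and 27.3% in T0. The 4 members on chromosome X, MED12, HDAC8, SMC1A and STAG2, had none, and 5.66% of the genes of that chromosome had one in T30 and 3.42% in T0. Loops at the gene itself are included in the counts around it. Loops ending within 500 kb had a median of 15 at members with a loop and 4 at those without in T30, and of 12 with a loop and 1 without in T0. No loop ended within 500 kb at 10 members in T30 and at 11 in T0, or 22.2% and 24.4% of members against 22.1% and 28.7% of all genes.

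**Figure D5:**
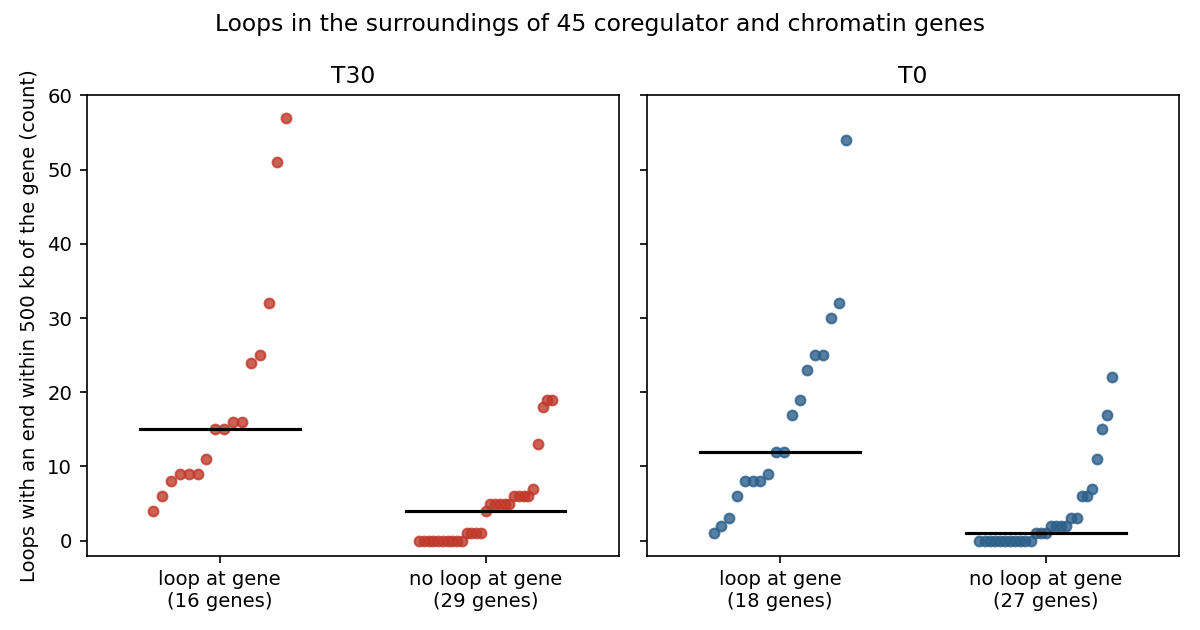
Loops with an end within 500 kb of each of the 45 members (count), for members with and without a loop at the gene, in T30 (left) and T0 (right); each point is a gene and the line is the median. Medians were 15 with a loop and 4 without in T30, and 12 with and 1 without in T0.

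A further 117 coregulator and chromatin genes, listed by role and not by their loops were counted in the same way. In T30, 43 of them had a loop, or 36.8% (exact 95% interval 28.0 to 46.2), where 32.2% of all genes did. In T0, 48 had one, or 41.0% (32.0 to 50.5), against 27.3% of all genes and 40.0% of the members. This interval lay above the share of all genes, but it treats genes as independent, although neighbouring genes can share a loop. It also takes no account of gene length. Their median length was 43.6 kb, against 24.2 kb over all genes. More partners in T30 were listed at 25 of them, or 21.4%, against 21.4% of all genes, and fewer at 26, or 22.2%, against 15.0%. Genes with a difference of 5 or more partners lay in both directions. ZMIZ1, a coactivator of the PIAS-like family, had 14 partners in T30 and 2 in T0, and PPARGC1B, a coactivator, had 10 in T30 and 5 in T0. HDAC9, a class IIa deacetylase, had 0 in T30 and 11 in T0, CARM1, an arginine methyltransferase that acts with p160 coactivators, 2 in T30 and 7 in T0, and EZH1, a paralog of EZH2, 1 in T30 and 6 in T0. HDAC7 and HDAC9, of the same enzyme class, differed in opposite directions between the libraries.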

How the data were processed

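Loops were measured by HiChIP in T47D cells in 1 library labelled T30 and 1 labelled T0; the other 21 of the 23 samples were not analysed here. Each deposited list holds loops at q-values up to 0.05, and nearby contacts were merged, per the labels. Contacts are unscaled counts of read pairs joining 2 bins of 5 kb, as deposited. Each p-value and q-value comes from the authors' caller with a bias term, per the file headers; a deposited fraction for each cluster entered no result. The submitters' processing notes name Bowtie, hg38 and GRCh38; how loops were called in detail, and whether cultures were pooled, is not given in the sources used here.

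Genes were 19974 protein-coding RefSeq genes of GRCh38.p14, widened by 10 kb. Intervals are exact binomial at 95%, or from order statistics for medians, treat loops and read pairs as independent, and cover counting error only. Matched loops were paired once each, closest bins first, and tested by an exact binomial test against their median ratio, with adjusted p at 0.05. The steps were tested on simulated data. The members, lists and tests were chosen with earlier results of these data known. Named loops were those with most contacts at each member or library, at the 5 bins with most partners, or called; other loops of members were named after their values were seen. The 117 further genes are named at a difference of 5 or more partners; 1 of them is not reported here. Other settings were q under 0.01, at least 10 contacts, spans of 20 kb or more, lists of equal length, genes not widened, widened by 25 kb or at their ends, other definitions of shared loops and other scalings; a common largest p-value was added after the data were seen. Scripts ran in Python 3.11.15; tables used pandas 2.3.3, arrays numpy 2.4.6, tests scipy 1.17.1 and plots matplotlib 3.10.9.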

Additional observations from a re-analysis of the deposited data

How the results depend on the processing

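No paired analysis was possible because each condition has 1 library. Of 82 recomputed values, 67 stayed within the interval of the reported one or within 1.5 times its count. Some of these could not change. Spans of 20 kb or more and the largest p-value of T30 kept every T30 loop, and lists of equal length kept every T0 loop. The ratio of contacts at members was 1.46, against 0.697 as reported, when both lists were held to the largest p-value of T30, where the ratio of loops was 2.24 and of partners 2.55; fewer T0 loops pass that limit. It was 0.906 at q under 0.01, 0.942 at 20 kb or more, 0.537 with lists of equal length and 0.548 with genes not widened. Members with a loop numbered 10 in T30 at q under 0.01, and 9 in T30 and 7 in T0 at bins that hold a gene end, which cover fewer bins. The share of loops found in the other list was 12.8% in T30 and 12.2% in T0 with identical bins, and 44.7% and 40.8% within 10 kb. The binomial test called 1 matched loop at members lower in T30 with the ratio of all listed contacts (127 over all) and 0 with the other scalings. More partners in T30 were listed at 12 members and fewer at 7 with spans of 20 kb or more, and at 4 and 9 with lists of equal length. With few loops per gene, differences of 1 or 2 loops are within counting error.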
